A study of Mus musculus with 8 samples.

Results

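The metallothioneins Mt1 and Mt2 and 3 genes of cellular zinc handling, Mtf1, Slc30a1 and Slc39a14, were followed in mouse kidney. Their probes were found by matching the RefSeq accession printed for each array probe to the gene. The 5 genes were among 20580 tested, of which 14106 have a gene symbol and the rest carry the identifier of the array. They have 9 probes on the array. In 1 or more groups, 8 of these were well above background on the full pair of arrays, and the brightest probe of each gene stands for it. Levels are log2 of the processed fluorescence signal minus log2 of the 75th percentile of the array, so that 0 marks a signal equal to that percentile. Levels of different genes come from different probes and are not compared with each other.

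Messenger RNA was measured on 8 single-colour arrays of left kidneys from male mice aged 16 weeks, with 2 arrays in each of 4 groups. The groups were wild type (WT) without surgery (WT normal), Keap1 knockdown without surgery (KD normal), and both genotypes at day 1 after ischemia-reperfusion injury (WT IRI and KD IRI). In the injured mice the left renal artery and vein were clamped for 45 min and released, and the right kidney was left unclamped. The labels do not name the strain or the allele that lowers Keap1, nor the cells in which it acts, and do not say whether the 2 arrays of a group are separate animals. The p-values therefore reflect only how far these arrays spread, which may be technical.

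Metallothioneins are small cysteine-rich proteins that bind zinc and copper and hold much of the exchangeable zinc of the cell. When free zinc rises, the zinc-finger factor MTF1 (gene Mtf1) binds metal response elements and induces Mt1, Mt2 and Slc30a1, which encodes ZnT1, the zinc exporter of the plasma membrane. Slc39a14 encodes ZIP14, an importer of zinc and of iron that interleukin-6 induces in the acute phase, and the metallothionein genes also respond to glucocorticoids and to oxidative stress.

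MTF1 and NRF2, the factor that KEAP1 holds in check, are known to recognise certain letters of DNA. The stretches before the start sites of the 3 genes that changed are shown with these letters marked where they occur. They are RefSeq windows of GRCm38.p6, each 250 bases on the + strand ending just before the start of the gene. Capitals mark the core of the metal response element, searched as TGCACNC and TGCGCNC, and the core of the antioxidant response element, searched as TGACNNNGC, on both strands. The window of Mt1 is chr8:94178839-94179088, that of Mt2 is chr8:94172368-94172617 and that of Slc30a1 is chr1:191906531-191906780.
Mt1: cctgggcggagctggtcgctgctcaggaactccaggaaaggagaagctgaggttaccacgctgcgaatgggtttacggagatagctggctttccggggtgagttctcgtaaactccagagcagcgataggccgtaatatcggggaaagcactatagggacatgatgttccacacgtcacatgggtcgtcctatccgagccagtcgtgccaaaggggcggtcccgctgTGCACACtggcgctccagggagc
Mt2: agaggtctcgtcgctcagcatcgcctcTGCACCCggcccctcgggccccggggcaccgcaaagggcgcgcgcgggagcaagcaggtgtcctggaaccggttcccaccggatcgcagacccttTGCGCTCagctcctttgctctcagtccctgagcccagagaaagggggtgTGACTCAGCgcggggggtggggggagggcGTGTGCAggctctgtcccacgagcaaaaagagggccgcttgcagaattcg
Slc30a1: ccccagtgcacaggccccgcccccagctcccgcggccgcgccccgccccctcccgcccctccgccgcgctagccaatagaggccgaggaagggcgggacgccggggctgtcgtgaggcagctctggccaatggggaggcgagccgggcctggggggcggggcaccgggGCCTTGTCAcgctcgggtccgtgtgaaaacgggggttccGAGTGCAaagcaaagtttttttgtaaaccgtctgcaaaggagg

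Mt2 and Mt1 are direct neighbours on chromosome 8, with their starts 6471 bases apart. Counted from the start of the gene, the Mt2 window held the metal response core at -223, -128 and -50 and the antioxidant response core at -79. That last match, TGACTCAGC, also contains TGACTCA, the letters of an AP-1 site. The Mt1 window held 1 metal response core, at -23, and no antioxidant response core. The Slc30a1 window held 1 of each, at -43 and -82. Of all 32851 promoter windows of the same length, 21.4% held at least 1 metal response core, 1.26% held at least 3, 10.2% held an antioxidant response core and 2.40% held both. The Mtf1 window held neither core. A window was available for 4 of the genes, all but Slc39a14. Each window depends on the RefSeq start of its gene, and other start sites were not considered. Bases farther upstream and bases past that start were not searched. The counts therefore describe these windows and not whole promoters, and a core missing from a window may lie outside it. A match is a description of letters and shows no binding.

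The arrays matched their labels for the targeted gene. Keap1 lay at 2.78 and 2.70 in WT normal and at 2.71 and 2.55 in WT IRI, against 1.53 and 1.44 in KD normal and 1.38 and 1.09 in KD IRI. Hmox1, an NRF2 target that degrades heme, was 18.4-fold higher in KD normal than in WT normal. The injury markers Havcr1 and Lcn2 rose 503-fold and 146-fold in WT IRI, and all 10 proximal tubule markers tested were well above background on all 8 arrays.

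Injury of the wild-type kidney raised both metallothioneins and lowered Slc30a1. Mt2 rose 6.44-fold and Mt1 4.38-fold, while Slc30a1 fell 2.15-fold. The importer Slc39a14 and the metal sensor Mtf1 did not pass the test.

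Mt2 lay at 4.44 and 4.35 in WT normal and at 6.77 and 7.40 in WT IRI. Both injured arrays stood above both uninjured ones. The change was 2.69 ± 0.36 on the log2 scale (SE, n = 2 arrays a group, limma with Benjamini-Hochberg adjustment, adjusted p = 0.00124), and 2.45% of all genes changed by at least as much in either direction.

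Mt1 lay at 3.71 and 3.65 in WT normal and at 5.18 and 6.45 in WT IRI. The groups did not overlap, and the injured arrays were farther apart than those of any other group. The change was 2.13 ± 0.41 (limma, adjusted p = 0.00555). The Mt1 probe is printed on 10 spots of each array, and the spots of an array varied by 3.25% to 4.78% (coefficient of variation), far less than the arrays of a group differed in KD normal and WT IRI.

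Slc30a1 lay at 1.71 and 1.60 in WT normal and at 0.74 and 0.37 in WT IRI, again without overlap but in the other direction. It fell by 1.11 ± 0.15 on the log2 scale (limma, adjusted p = 0.00136). Its second probe fell by 0.56 ± 0.13 (adjusted p = 0.0109 over 27408 probes), the same direction at a smaller size. In whole kidney, fewer cells that hold a transcript and less of it in each cell cannot be told apart.

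Slc39a14 lay at -0.59 and -0.83 in WT normal. The injured arrays lay at -0.73 and 1.02, so the first stood between the uninjured arrays and the second far above both. The change was 0.86 ± 0.50 (limma, adjusted p = 0.201), and it was 1.74 without the first WT IRI array (adjusted p = 0.00170) and -0.02 without the second (adjusted p = 0.965). Its second, dimmer probe, on its own scale, lay at -2.11 and -2.33 in WT normal and at -1.34 and 0.09 in WT IRI, a change of 1.59 ± 0.40 (adjusted p = 0.0168).

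Mtf1 lay at -1.01 and -0.62 in WT normal and at -0.92 and -0.86 in WT IRI. The groups overlapped, and the change was -0.08 with a 95% interval of -0.48 to 0.32. Thus 3 of the 5 genes passed the threshold of 0.05 in WT IRI against WT normal, a comparison in which 45.6% of all genes did, 21.2% higher and 24.4% lower.

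**Figure D1:**
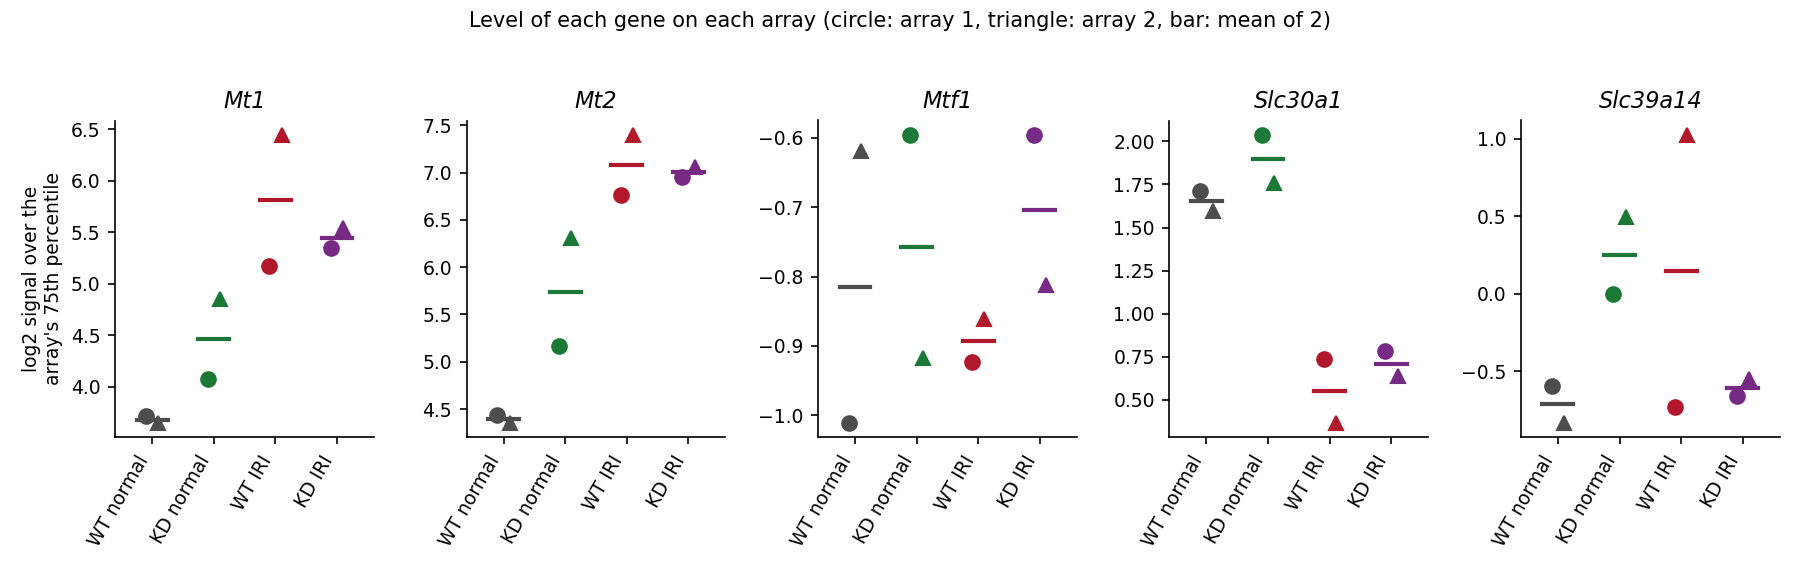
Each panel plots 1 gene, with the log2 signal over the 75th percentile of the array on the vertical axis and the 4 groups side by side. Circles are array 1 of a group, triangles array 2 and bars the mean of the 2. Both metallothioneins stood above both WT normal arrays in every other group, the brightest probe of Slc30a1 stood lower on all 4 injured arrays than on all 4 uninjured ones, and Slc39a14 lay at -0.73 and 1.02 on the 2 WT IRI arrays.

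In the knockdown kidney, injury raised Mt2 2.41-fold and lowered Slc30a1 2.28-fold. Mt1 was 1.97-fold higher on average and missed the threshold, and Slc39a14 was lower on both injured arrays than on both uninjured ones without passing the test.

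Mt2 lay at 5.17 and 6.31 in KD normal and at 6.96 and 7.06 in KD IRI. The injured arrays were close to each other and stood above both uninjured ones, which were 1.14 apart. The change was 1.27 ± 0.36 (limma, adjusted p = 0.0191). Without the first KD normal array it was 0.70 (adjusted p = 0.0551), and without the second it was 1.84.

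Mt1 lay at 4.08 and 4.85 in KD normal and at 5.35 and 5.54 in KD IRI. The injured arrays were above the uninjured ones here too. The change was 0.98 ± 0.41, with a 95% interval of 0.01 to 1.95 (limma, adjusted p = 0.0748), and it passed the threshold in 7 of 18 alternatives, among them the replicate block (adjusted p = 0.0334). Without the first KD normal array it was 0.59 (adjusted p = 0.329), and without the second 1.37 (adjusted p = 0.0514). Each slide held replicate 1 or replicate 2 of all 4 groups, so the block is the slide, and the differences within the slides were 1.27 and 0.69.

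Slc30a1 lay at 2.04 and 1.76 in KD normal and at 0.78 and 0.64 in KD IRI. It fell by 1.19 ± 0.15 on the log2 scale (limma, adjusted p = 0.000545), and its second probe fell by 0.83 ± 0.13. By the brightest probe each of the 4 injured arrays was below each of the 4 uninjured ones. By the second probe the first KD IRI array, at 0.89, was above the second WT normal array, at 0.88.

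Slc39a14 lay at 0.00 and 0.50 in KD normal and at -0.66 and -0.55 in KD IRI. The change was -0.85 ± 0.50 (limma, adjusted p = 0.181). The spread behind that SE is shared by all groups and includes the WT IRI pair. With either WT IRI array left out the adjusted p was 0.00705 or 0.00722. The second probe changed by -0.12 ± 0.40 (adjusted p = 0.822), so the probes differed.

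Mtf1 changed by 0.05 (95% interval -0.35 to 0.45). In all, 2 of the 5 genes passed in KD IRI against KD normal, where 59.1% of all genes did, 28.3% higher and 30.9% lower.

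Without injury, Mt2 was 2.53-fold higher in the knockdown than in the wild type, and no other of the 5 genes passed. On both KD normal arrays Mt1, Mt2, Slc30a1 and Slc39a14 were above both WT normal arrays. The share of all genes in such an order was not counted, so no difference is read from it. The shares of all genes past the threshold in this comparison were 15.3% in all, 6.34% higher and 8.96% lower. The WT normal arrays also serve as the control of the injury comparison.

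The Mt2 difference was 1.34 ± 0.36 (limma, adjusted p = 0.0487). It was 0.73 on the first slide and 1.95 on the second. Without the second KD normal array it was 0.77 (adjusted p = 0.117), and without the first it was 1.91. Of 18 alternative analyses 10 gave an adjusted p above 0.05, with the same direction in each.

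Mt1 was 0.78 ± 0.41 higher on the log2 scale (limma, adjusted p = 0.234), which does not pass. It was 1.17 without the first KD normal array and 0.39 without the second. Slc39a14 differed by 0.96 ± 0.50 (adjusted p = 0.234), and its second probe by 1.11 ± 0.40 (adjusted p = 0.104). With either WT IRI array left out of the shared spread the Slc39a14 difference had an adjusted p of 0.0190 or 0.0194.

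Slc30a1 differed by 0.24 ± 0.15 (limma, adjusted p = 0.312) by its brightest probe. Its second probe lay at 0.93 and 0.88 in WT normal and at 1.83 and 1.47 in KD normal. That probe was 0.75 ± 0.13 higher in KD normal (adjusted p = 0.0131 over all probes), so the probes of the exporter gave different calls. Mtf1 differed by 0.06 (95% interval -0.34 to 0.46).

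Between the injured kidneys of the 2 genotypes none of the 5 genes passed in limma, and at an unadjusted p of 0.05 none did either. In this comparison 7.20% of all genes were called. The differences of KD IRI from WT IRI were -0.08 for Mt2 (95% interval -0.92 to 0.77), -0.37 for Mt1 (-1.33 to 0.60), 0.16 for Slc30a1 (-0.20 to 0.51) and 0.19 for Mtf1 (-0.21 to 0.59). These intervals leave room for a difference of either sign. That of Slc39a14 was -0.75 (-1.94 to 0.43), and it was -1.63 without the first WT IRI array (adjusted p = 0.0174) and 0.12 without the second (adjusted p = 0.755). For Mt1 these values were -1.0 and 0.27, and for Mt2 -0.39 and 0.24, so the sign followed the array left out.

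The interaction asks whether the injury response differed between the genotypes, as the response of KD minus that of WT. None of the 5 genes passed, against 6.52% of all genes. The interaction was -1.42 ± 0.51 for Mt2 (limma, adjusted p = 0.138), -1.15 ± 0.58 for Mt1 (adjusted p = 0.260) and -1.71 ± 0.71 for Slc39a14 (adjusted p = 0.184). Mt2 and Slc39a14 were below 0.05 before adjustment, at 0.0265 and 0.0464. The Mt2 value was -0.54 on the first slide and -2.30 on the second. For Slc30a1 it was -0.08 (95% interval -0.59 to 0.42) and for Mtf1 0.13 (-0.44 to 0.70).

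The size of these interactions, and the call, depended on single arrays. That of Mt2 was -1.99 without the first KD normal array (adjusted p = 0.0329) and -0.85 without the second (adjusted p = 0.184). That of Mt1 was -1.79 without the first WT IRI array (adjusted p = 0.0434) and -0.51 without the second (adjusted p = 0.442), and -0.76 without the second KD normal array. That of Slc39a14 was -2.59 without the first WT IRI array (adjusted p = 0.00983) and -0.84 without the second (adjusted p = 0.135).

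**Figure D2:**
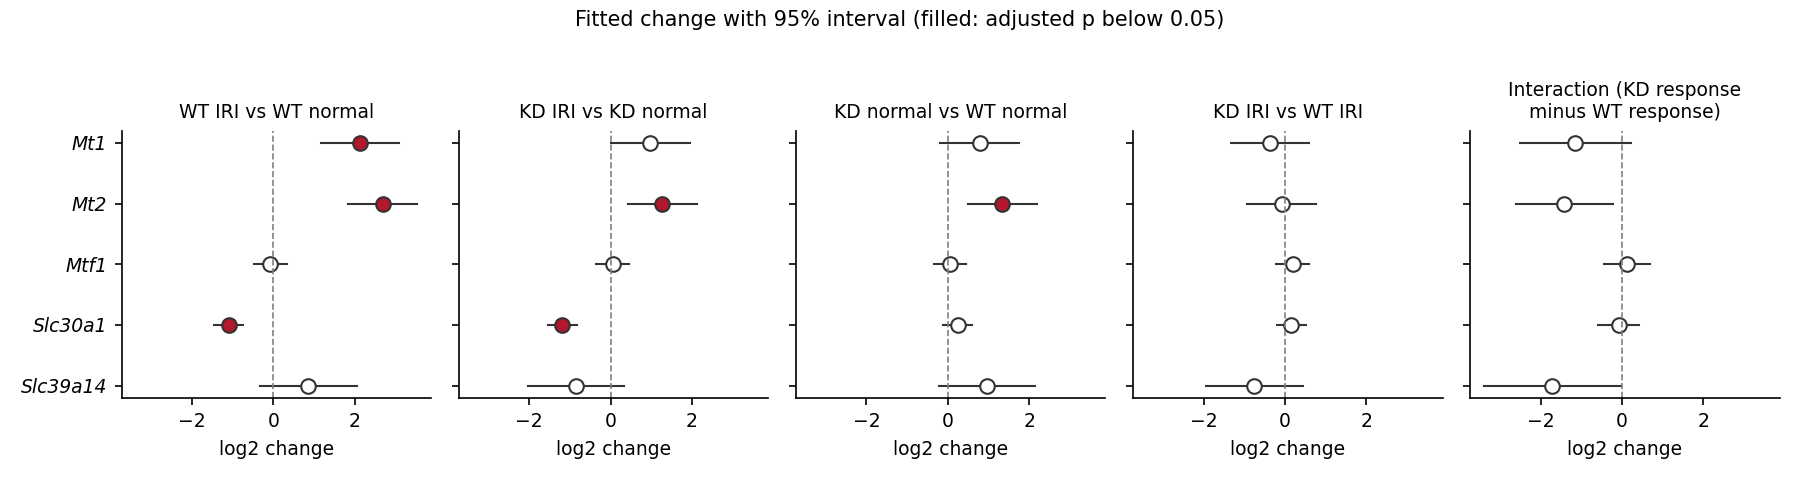
Points give the fitted log2 change of each gene in 1 comparison a panel, bars its 95% interval, and filled points an adjusted p below 0.05. Mt1, Mt2 and Slc30a1 passed in WT IRI against WT normal, Mt2 and Slc30a1 in KD IRI against KD normal, Mt2 in KD normal against WT normal, and no gene in the other 2 panels.

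The level of the metallothioneins differed within groups as well as between them. Mt1 was 1.27 higher on the second WT IRI array than on the first, a gap that 2.20% of genes exceeded in that group. For Slc39a14 the gap was 1.75, exceeded by 0.816% of genes, and for Mt2 it was 0.63, exceeded by 10%. In KD normal the second array was 1.14 higher for Mt2 and 0.78 higher for Mt1, gaps exceeded by 2.90% and 6.32% of genes.

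The same arrays stood apart for genes that glucocorticoids and interleukin-6 are known to induce. Among 11 glucocorticoid-induced genes, 9 were higher on the second WT IRI array and 9 on the second KD normal array, by a median of 0.88 and 0.60. Fkbp5, a chaperone of the glucocorticoid receptor, lay at 0.35 and 2.11 in WT IRI and at 1.95 and 2.84 in KD normal, against 0.17 and -0.14 in WT normal. It stood at 0.39 and 0.47 in KD IRI. Tsc22d3, which encodes the glucocorticoid-induced leucine zipper, gave 0.56 and 2.16 for the WT IRI pair, and 3.06 and 4.0 for the KD normal pair.

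Of 17 acute-phase genes of the interleukin-6 and STAT3 pathway, 15 were higher on the second WT IRI array than on the first, by a median of 0.72. Among them Saa3, an acute-phase apolipoprotein, was at -3.70 and -0.33, and Fgb, the fibrinogen beta chain, at 2.24 and 5.10. Il6 itself went the other way, at -4.37 and -6.05, the latter not well above background. Bcl3 was also lower, at 2.42 and 2.11. In KD normal 13 of the 17 were higher on the second array, by a median of 0.38. In KD IRI 14 were, by a median of 0.20, while Mt1 and Mt2 differed there by 0.19 and 0.10. Over all genes 47.5% were higher on the second WT IRI array and 47.6% on the second KD normal array.

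Most neutrophil markers moved with these arrays as well. Of the 7 tested, 6 were higher on the second WT IRI array (median 1.04) and all 7 on the second KD normal array (median 2.67). Csf3r was lower on the second WT IRI array, at -0.92 and -1.57. In KD IRI 6 were higher on the second array (median 0.29). The summed signal of the 7 markers tested, in units of the 75th percentile, was 0.27 on each WT normal array and 0.76 and 6.37 for the KD normal pair. It reached 51.1 and 109.8 for the WT IRI pair and 55.0 and 61.7 for the KD IRI pair. The sum is weighted to the brightest marker, S100a9, at 5.48 and 6.52 in WT IRI. Among 9 monocyte and macrophage markers, 5 were higher on the second WT IRI array, 8 on the second KD normal array and 9 on the second KD IRI array. Of the 7, 1 was well above background on each WT normal array, 2 and 5 on the KD normal arrays and all 7 on each injured array. The 10 proximal tubule markers summed to 641 and 629.8 for the WT normal pair and 706 and 674 for the KD normal pair. They summed to 246 and 145 after injury of the wild type and 168 and 132 after injury of the knockdown. Of these 10 markers 0 were higher on the second WT IRI array (median -0.69) and 0 on the second KD IRI array (median -0.34). The part that cell composition, glucocorticoids or the acute phase have in the metallothionein and Slc39a14 values was not tested.

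**Figure D3:**
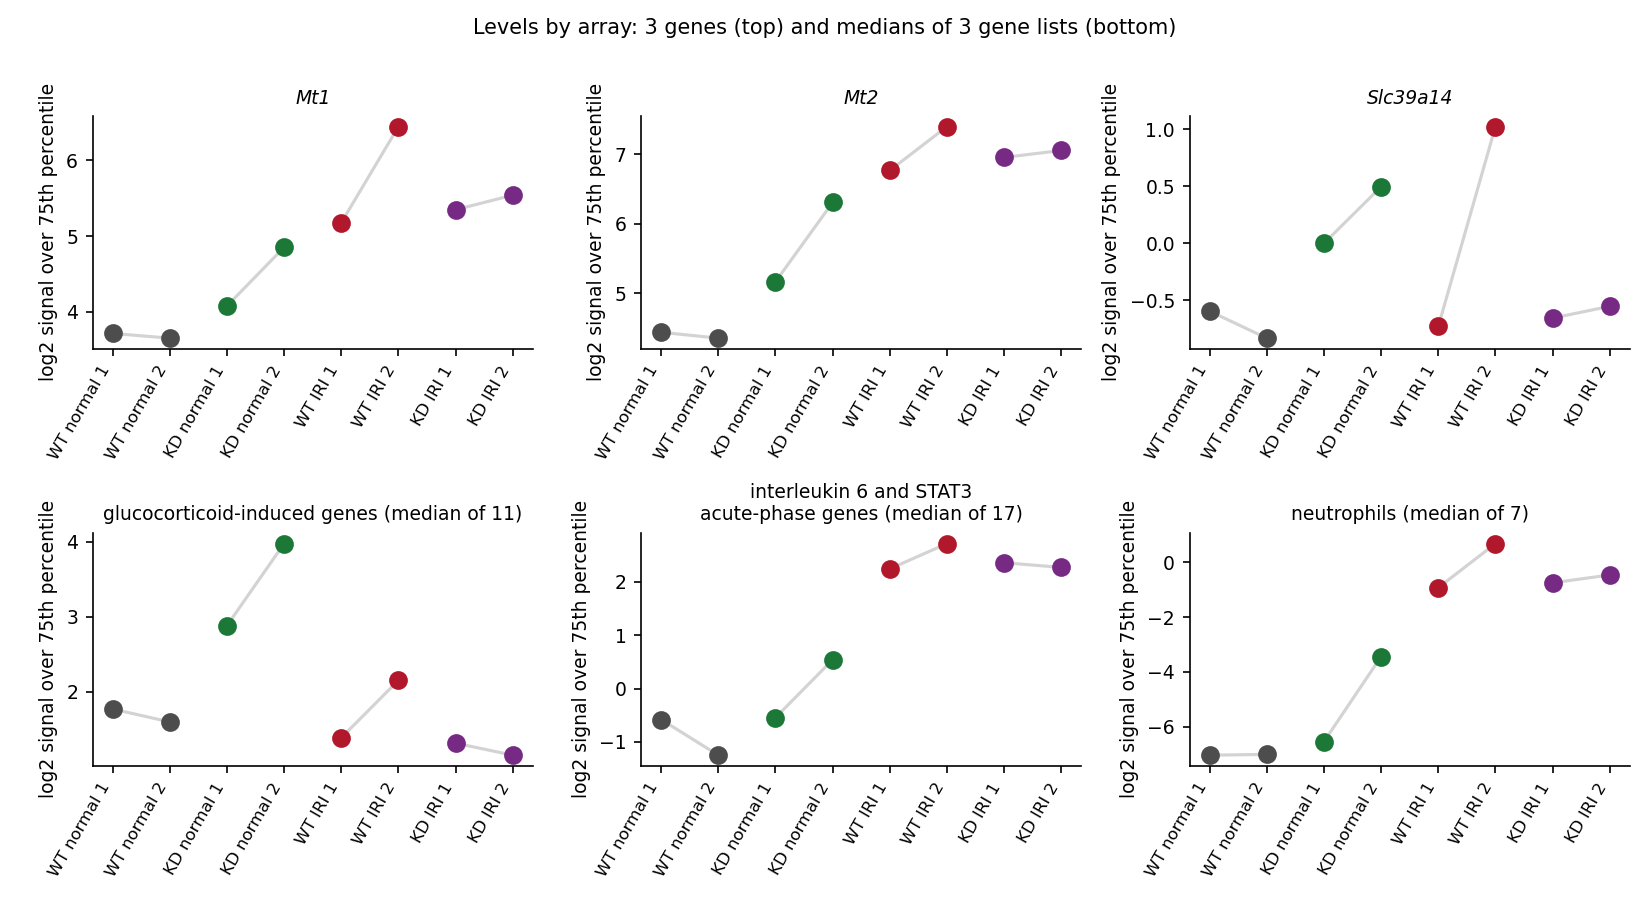
Log2 signal over the 75th percentile is shown for each of the 8 arrays, for Mt1, Mt2 and Slc39a14 in the top row and as the median of 3 gene lists in the bottom row. Grey lines join the 2 arrays of a group and carry no order. The second arrays of KD normal and WT IRI were higher than the first in all 6 panels. Lists that are not drawn did not all do so. On the WT IRI arrays the monocyte and macrophage median was 0.27 and -0.09, and the proximal tubule median 4.22 and 3.66.

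The shares of all genes past the threshold were 21.2% higher and 24.4% lower in WT IRI against WT normal. In KD IRI against KD normal they were 28.3% and 30.9%, and in KD normal against WT normal 6.34% and 8.96%. In KD IRI against WT IRI 7.20% were called, and in the interaction 6.52%. As groups, the inducer lists changed as follows. In WT IRI against WT normal 15 of 17 acute-phase genes rose and none fell, with a median change of 3.06 against -0.07 over all genes, and in KD IRI against KD normal 13 rose and none fell (median 2.00). In KD normal against WT normal 3 rose (median 0.48 against -0.03 over all genes), namely Osmr, the oncostatin M receptor, Junb, a subunit of AP-1, and Stat3 itself. In KD IRI against WT IRI 1 rose, Bcl3, and in the interaction Fga, the fibrinogen alpha chain, was the 1 gene called, at -5.05 ± 1.09 (limma, adjusted p = 0.0451).

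The glucocorticoid-induced list moved the other way with injury in the knockdown. Of its 11 genes, 8 fell and none rose in KD IRI against KD normal, with a median of -1.96 against -0.06 over all genes. Tsc22d3 fell by 2.97 ± 0.51 and Klf9, a transcription factor, by 2.44 ± 0.28 on the log2 scale. Mt2 rose in the same comparison, and a link between this list and Mt2 was not tested. In KD normal against WT normal 3 rose and none fell (median 1.09), which were Fkbp5 by 2.38 ± 0.54, Tsc22d3 by 1.91 ± 0.51 and Cebpd, a C/EBP transcription factor, by 1.90 ± 0.47. In WT IRI against WT normal Cebpd rose and Tat, a tyrosine aminotransferase, fell, and the other 9 did not pass. None passed in limma in KD IRI against WT IRI (1 at an unadjusted p under 0.05), and Klf9 alone was called in the interaction.

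Of 12 NRF2 targets, 10 rose and none fell in KD normal against WT normal, with a median of 1.21. The largest rises were those of Hmox1 by 4.20 ± 0.16 and Cbr3, a carbonyl reductase, by 3.55 ± 0.16. In KD IRI against WT IRI 10 rose as well (median 1.15). The part that NRF2 has in the metallothionein levels was not tested. With injury 8 rose and 2 fell in the wild type and 7 rose and 4 fell in the knockdown, and in the interaction 2 were higher and 2 lower.

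The zinc transporters around Slc30a1 and Slc39a14 were described from the family lists. ZnT proteins of the Slc30 family move zinc out of the cytosol, and ZIP proteins of the Slc39 family move it in. Of 9 other Slc30 genes 5 could be tested, and of 13 other Slc39 genes 12. Of the rest, Slc30a3, Slc30a8, Slc30a10 and Slc39a12 passed the filter on dim probes in no group, and no probe was matched to Slc30a2.

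Among the 5 other exporters, Slc30a5 and Slc30a9 fell with injury as Slc30a1 did, and Slc30a7 rose. Slc30a9, which encodes a mitochondrial zinc transporter, lay at 1.69 and 1.77 (WT normal) and 1.90 and 1.87 (KD normal) without injury, and at 1.09 and 0.93 (WT IRI) and 0.57 and 0.66 (KD IRI) after it. The injured arrays were below the uninjured ones, with the KD IRI pair lowest. It fell by 0.72 ± 0.09 in the wild type and by 1.27 ± 0.09 in the knockdown. The interaction was -0.55 ± 0.12, just past the threshold in the main fit (limma, adjusted p = 0.0481). Whether this call holds under the alternatives was not examined. Over all genes the interaction calls went from 1342 to 636 with the deposited table.

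Slc30a5, which encodes ZnT5 of the secretory pathway, fell by 0.40 ± 0.09 and by 0.99 ± 0.09 in the same comparisons (limma interaction -0.59 ± 0.13, adjusted p = 0.0460). That call was as close to the threshold and was not examined under the alternatives either. Slc30a7, another secretory pathway exporter, rose by 0.54 ± 0.15 and 0.81 ± 0.15. Slc30a4 rose in the knockdown alone among the injury comparisons, by 0.42 ± 0.11, with an interaction of 0.27 ± 0.16 that did not pass (adjusted p = 0.343). Slc30a6 passed in no comparison, with 0.34 ± 0.15 in KD normal against WT normal as its largest difference. In counts, 1 of the 5 rose and 2 fell in the wild type, and 2 rose and 2 fell in the knockdown. Over all genes 21.2% rose and 24.4% fell in the wild type, and 28.3% and 30.9% in the knockdown. None of the 5 passed in KD normal against WT normal (limma, with 1 at an unadjusted p under 0.05), where 15.3% of all genes did. In KD IRI 1 (Slc30a9) was lower than in WT IRI, a comparison in which 7.20% of all genes were called.

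The importers did not move one way. With injury 3 of the 12 rose and 3 fell in the wild type (median -0.05), and 5 rose and 4 fell in the knockdown (median 0.01). Over all genes 21.2% rose and 24.4% fell in the wild type, and 28.3% and 30.9% in the knockdown. The counts are therefore not read as a result about importers. Slc39a8 encodes ZIP8, the closest relative of ZIP14 and likewise a carrier of zinc, iron and manganese. Its uninjured levels were 1.56 and 1.53 (WT) and 1.48 and 1.30 (KD), and its injured levels -0.85 and -0.55 (WT) and -1.27 and -1.45 (KD).

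All 4 injured arrays were far below the uninjured ones. Slc39a8 fell by 2.24 ± 0.13 in the wild type and by 2.75 ± 0.13 in the knockdown (limma, adjusted p = 8.54e-05 and 1.88e-05). It was also lower in KD IRI than in WT IRI, by -0.66 ± 0.13 (adjusted p = 0.0312).

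Slc39a4, the importer of dietary zinc in the intestine, was the only importer on the list to pass in KD normal against WT normal. Its uninjured levels were -2.0 and -1.82 (WT) and -0.28 and -0.02 (KD), and its injured levels -0.98 and -0.31 (WT) and 0.33 and 0.76 (KD). The knockdown arrays were above the wild-type arrays of the same condition without overlap. The differences were 1.76 ± 0.24 in KD normal against WT normal (limma, adjusted p = 0.00882) and 1.19 ± 0.24 between the injured kidneys (adjusted p = 0.0358). Injury raised it by 1.26 ± 0.24 in the wild type and by 0.69 ± 0.24 in the knockdown, and the interaction did not pass (adjusted p = 0.343).

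Slc39a6 and Slc39a1 rose with injury in both genotypes. Slc39a6, an importer of the plasma membrane, rose by 1.34 ± 0.15 in the wild type and by 1.75 ± 0.15 in the knockdown. Slc39a1, which encodes ZIP1, rose by 0.94 ± 0.09 and 1.03 ± 0.09.

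Slc39a11 fell by 0.43 ± 0.08 and 0.62 ± 0.08 and Slc39a9 by 0.27 ± 0.08 in each genotype. In the knockdown Slc39a5 also fell, by 1.23 ± 0.22, and Slc39a7 and Slc39a13, importers of the endoplasmic reticulum and Golgi, rose by 0.32 ± 0.07 and 0.36 ± 0.09. The wild-type values of these 3 were -0.42 ± 0.22, 0.11 ± 0.07 and 0.02 ± 0.09, and the interactions did not pass (adjusted p = 0.155, 0.264 and 0.152). Slc39a2, Slc39a3 and Slc39a10 passed in no comparison, with -0.62 ± 0.30 for Slc39a2 in WT IRI against WT normal as the largest difference among them.

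**Figure D4:**
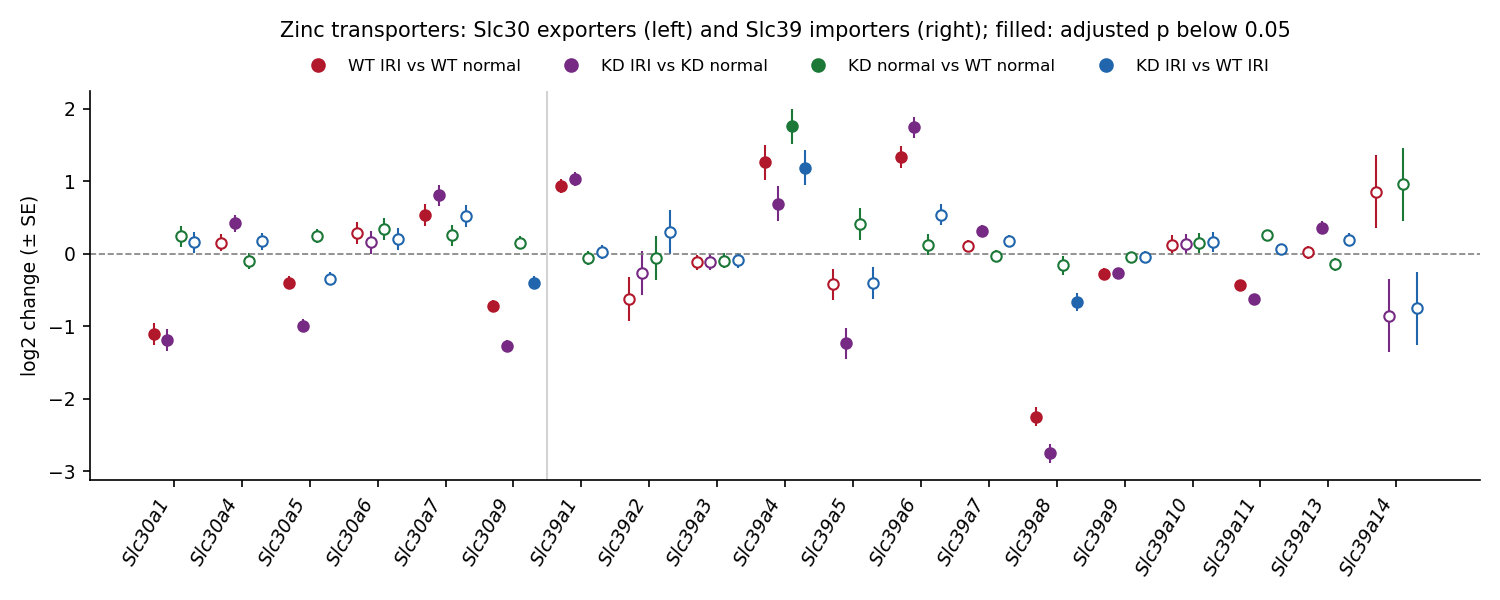
The vertical axis is the fitted log2 change ± SE of each Slc30 and Slc39 gene tested, Slc30a1 and Slc39a14 included, in 4 comparisons marked by colour. Filled points have an adjusted p below 0.05. Slc39a8 fell most with injury, by 2.24 and 2.75, and Slc39a4 was filled in all 4 comparisons.

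The metallothioneins Mt3 and Mt4, which lie beside Mt1 and Mt2 in the genome and are known from brain and from stratified epithelium, passed in no comparison in limma, and at an unadjusted p of 0.05 neither did in any. Mt3 lay between -0.47 and -0.23 on all 8 arrays and Mt4 between -3.96 and -2.70. Their changes in WT IRI against WT normal were -0.11 ± 0.10 and 0.31 ± 0.29, beside the rises of Mt1 and Mt2 above 2 on the same scale.

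Across the 8 arrays Mt1 and Mt2 ran together (Pearson r = 0.964), and each ran against Slc30a1 (r = -0.868 and -0.825). Mtf1 followed neither (r = -0.159 and -0.125). Slc39a14 had r = 0.512 with Mt1 and 0.384 with Mt2. These values describe 8 arrays in 4 groups that share the injury contrast, and carry no test.

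The genes most like each member over the 8 arrays were found among all tested. For Mt1 they were Rhoj, a small GTPase of endothelial cells (r = 0.997), Chac1, an enzyme that degrades glutathione (0.992), and Mmp8, the neutrophil collagenase (0.992). The uninjured levels of Rhoj were -0.19 and -0.26 (WT) and 0.00 and 0.71 (KD), and its injured levels 0.92 and 2.12 (WT) and 1.06 and 1.36 (KD). Its closeness to Mt1 on each array is what it was chosen for. For Mt2 they were Medag, Lgi2 and Ms4a6d (0.993, 0.992 and 0.992). Mmp8 was well above background on 5 of the 8 arrays and these 3 on 6 each, so their lowest values are near the floor.

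For Slc30a1 they were Mrpl28, a protein of the mitochondrial ribosome (0.997), Fads2, a fatty acid desaturase (0.994), and Csnk2b, the regulatory subunit of casein kinase 2 (0.994). For Slc39a14 they were Slc38a9, an amino acid transporter of the lysosome (0.966), Ddx28 (0.955) and Crispld2 (0.953). Crispld2 lay at 0.46 and 2.83 in WT IRI and at 0.90 and 1.34 in KD normal, against 0.35 and 0.27 in WT normal and 0.17 and 0.32 in KD IRI.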

How the data were processed

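Each array of the 8 samples gave 1 scanner file. Per the file headers, the spot values the authors deposited are linear fluorescence intensity after background subtraction and spatial detrending, made with Agilent Feature Extraction 10.7.3.1. The value table deposited by the authors holds log2 values. Its columns tracked the scanner values scaled to the 75th percentile and centred on each probe's median (r from 0.999997 to 0.999999). Its column medians were 0.16, 0.125, 0.0952, 0.0564, -0.0746, -0.0822, -0.136 and -0.117 in the order WT normal, KD normal, WT IRI, KD IRI. Its scaling is not given in the sources used here.

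Here the log2 processed intensity minus the log2 75th percentile of each array was used. Control and outlier spots were dropped, and probes were averaged over their spots. Of 41174 probes, the 27408 kept had a signal well above background on the 2 arrays of 1 or more groups, and the brightest probe stood for a gene. Symbols came from a RefSeq table of a later assembly than the array design, which served only to name genes and their neighbours. Group means were fitted to all 8 arrays with limma 3.58.1 in R 4.3.3 (with the package data.table, version 1.17.8) with an intensity trend, tested two-sided in 5 comparisons, and adjusted by Benjamini-Hochberg over 20580 genes at a threshold of 0.05. The scripts were tested on simulated data.

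Per the file headers, slide 1 held replicate 1 and slide 2 replicate 2 of each group. Deviations of same-numbered arrays correlated between 0.02 and 0.26 over the 6 pairs of groups. From 62.1% to 67.8% of the spots that were not controls were well above background, and none was saturated. Precision is limited by the 2 arrays a group.

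The 5 genes, the 7 pathway lists and the 6 marker lists were chosen with earlier results of these data known. Genes beyond the 5 were named by a rule: from each list the largest changes in each direction and the largest not past the threshold, every zinc transporter, and the 3 genes most like each of 4 members. Alternatives were quantile normalization, normexp (offset 50), the deposited log2 table, no filter on dim probes, other filters and fits, a replicate block, other probes and leaving out each array.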

Additional observations from a re-analysis of the deposited data

How the results depend on the processing

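With 2 arrays a group, 1 array can decide a call. Over 460 combinations of the 5 genes, the comparisons and the alternatives, 422 kept their side of the threshold, 38 did not, and no called change turned direction. In WT IRI against WT normal Mt1, Mt2 and Slc30a1 passed under each alternative. Slc39a14 joined them with normexp, with its next brightest probe and without the first WT IRI array. In KD IRI against KD normal 4 passed with normexp and 4 with only the arrays compared, and 1 to 4 with 1 array left out. In KD normal against WT normal 2 passed with normexp and 2 with the mean of all probes (Mt2 and Slc30a1), and 0 with quantile normalization, the deposited table, no filter on dim probes or no intensity trend. With only the arrays compared 1 passed, but it was Slc39a14 (adjusted p = 0.0461) and not Mt2 (0.0830). The count was 0 to 2 with 1 array left out. In KD IRI against WT IRI 0 to 1 passed with 1 array left out, and in the interaction 0 to 2, and 1 with normexp (Slc39a14). The replicate block moved 1 call, that of Mt1 in KD IRI against KD normal (0.98, adjusted p = 0.0334), and no other of these. With normexp the median change of all genes was 0.22, -0.31, 0.15, -0.21 and -0.30 in the 5 comparisons. In the main fit it was -0.07, -0.06, -0.03, -0.04 and 0.003. Relative to the normexp median Mt2 changed by 2.37 in WT IRI and 1.78 in KD IRI, Mt1 by 1.73 and 1.44, and Slc30a1 by -1.29 and -0.72. Over all genes, normexp called 5193 in WT IRI against WT normal, 6935 in KD IRI against KD normal and 1328 in KD normal against WT normal. No filter called 15080, 1983 in KD normal against WT normal and 569 in the interaction, and lowered the share of calls that were higher in WT IRI from 46.5% to 29.9%. No intensity trend called 958 in KD IRI against WT IRI and 758 in the interaction, only the arrays compared 67 in KD IRI against WT IRI. In the interaction 636 were called from the deposited table. With 1 array left out the counts ran from 5890 to 9653 in WT IRI against WT normal, 122 to 3863 in KD normal against WT normal, 24 to 1580 in KD IRI against WT IRI and 5 to 1686 in the interaction, where a lone array is assumed to vary like the other groups. The next brightest probe was tried after the data were seen. The causes of these differences were not tested.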

Other observations

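Copper, the other metal that metallothioneins bind, was followed in 14 genes of copper handling. In WT IRI against WT normal 3 rose and 6 fell, and in KD IRI against KD normal 1 rose and 5 fell. Over all genes 21.2% rose and 24.4% fell in the wild type, and 28.3% and 30.9% in the knockdown. The median change of the 14 was -0.20 in the wild type and -0.06 in the knockdown, against -0.07 and -0.06 over all genes. Cp, the copper-carrying ferroxidase ceruloplasmin, had uninjured levels of 0.92 and 0.89 (WT) and 0.87 and 1.24 (KD), and injured levels of 2.13 and 3.45 (WT) and 1.76 and 1.86 (KD). It rose by 1.89 ± 0.37 in the wild type (limma, adjusted p = 0.00642), with the second WT IRI array highest, as for Mt1 and Slc39a14. The metalloreductase Steap2 rose by 1.25 ± 0.21 and 1.47 ± 0.21. Ccs, the copper chaperone of superoxide dismutase, fell by 1.22 ± 0.12 and 1.34 ± 0.12, and Sod1, its client, by 0.88 ± 0.11 and 1.02 ± 0.11. The copper importer Slc31a1 fell by 0.86 ± 0.10 and 1.32 ± 0.10. In KD normal against WT normal 1 of the 14 rose, the copper exporter Atp7b, by 0.63 ± 0.11, and it was the 1 gene called in the interaction, at -0.96 ± 0.15 (limma, adjusted p = 0.0240). None passed in limma in KD IRI against WT IRI (5 at an unadjusted p under 0.05), where Cp differed by -0.98 ± 0.37 (adjusted p = 0.152).

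Of the other marker lists, all 8 loop and distal tubule genes fell with injury in each genotype, and 9 and 10 of the 10 proximal tubule genes did. Of 9 monocyte and macrophage genes 8 rose and 1 fell in the wild type, and 7 rose and 1 fell in the knockdown. The 1 that fell in the wild type was Csf1r, at -0.95 ± 0.16 (limma, adjusted p = 0.00314). Over all genes 21.2% rose and 24.4% fell in the wild type, and 28.3% and 30.9% in the knockdown. All 4 red blood cell genes fell in the wild type and 3 in the knockdown. Their summed signal lay between 20.6 and 229.7 over the arrays, highest on the second WT normal array. The 4 fat and adrenal genes summed to between 0.33 and 1.66.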
